A study of Mus musculus with 12 samples.

Results

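The 10 genes described here were low in thymic T-cell lymphomas of mice that resisted genetic restoration of p53, namely Slco4a1, Slc5a8, Fyb2, Psd, Muc1, Apol7c, E2f5, Fam83b, Ces2f and Sec14l4. They are 10 of the 37991 Ensembl genes in the deposited count table, and each symbol matched 1 identifier. They were selected on these same counts, as genes among those most regularly lower in the resistant tumours, so the difference between the groups is what chose them and is given as a description, without a test. Ordered by p among the genes lower in non-responders, they lay between position 1 (Ces2f) and position 145 (E2f5). The study compared 4 tumours labelled non-responder with 8 labelled responder, the response having been read as growth or shrinkage by magnetic resonance imaging. All 12 were thymic lymphomas of C57BL/6 mice of 1 genotype, p53neo/R172H;R26CreER/GNZ, and all had received weekly intraperitoneal tamoxifen. Tamoxifen activates the CreER recombinase of the R26 locus, which reactivates the wild-type p53 allele, while the other p53 allele carries the R172H mutation. There was no untreated or wild-type group, and each tumour gave 1 RNA-seq library from a whole frozen piece that also holds host cells. In such a piece, fewer cells of a type and less RNA per cell cannot be told apart.

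The 10 genes have no pathway in common, and most are known from cells other than thymocytes. Slco4a1 and Slc5a8 encode membrane transporters, for organic anions and for lactate, butyrate and other monocarboxylates. Fyb2 and Psd act in adhesion and membrane traffic: FYB2 is an adaptor related to FYB1 of T-cell receptor signalling, known from human T cells, and PSD (EFA6A) loads the small GTPase ARF6 with GTP. Muc1 and Fam83b are genes of epithelia, for a transmembrane mucin and for a scaffold protein of the FAM83 family. Apol7c belongs to the apolipoprotein L genes of the mouse and has been described in dendritic cells. Ces2f and Sec14l4 encode a carboxylesterase and a lipid-binding protein of the SEC14 family. E2f5 encodes a cell-cycle transcription factor that binds the pocket proteins, relatives of the retinoblastoma protein.

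The libraries held 20796860 to 30265753 counts, and levels are given as CPM, counts relative to the library total after TMM scaling. Rag1, which encodes a recombinase subunit and marks cortical thymocytes, divided the tumours. It stood at 1498, 168, 1756 and 1264 CPM in non-responders 1 to 4, and at 895, 1204 and 1262 CPM in responders 1 to 3. In responders 4 to 8 it lay between 0.41 and 2.91 CPM. All 4 non-responders were thus above 100 CPM, together with 3 of the responders, and 5 responders were below 10 CPM. T-cell markers were present in all 12 tumours but at unequal levels. The 7 markers summed to 1478 to 2030.2 CPM in non-responders, against 1137 to 1878 CPM in Rag1-high and 428 to 1042 CPM in Rag1-low responders, and 6 of the 7 had a log2 fold change above 0. The part of this difference in the 10 genes' levels was not tested.

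For 9 of the 10 genes every non-responder lay below every responder, and Apol7c was the exception. Over all 18612 genes tested, 219 (1.18%) were lower in non-responders without overlap. Against the 3 responders with Rag1 above 100 CPM alone, 571 of the 18612 genes (3.07%) were lower without overlap. The 9 are among these by construction, since those 3 belong to the 8, so this count says nothing about Rag1. The median log2 fold change of the 10, non-responder over responder, was -2.60, against -0.02 over all genes tested. All 10 passed the filter on low counts, but Muc1, Fam83b, Ces2f and Sec14l4 lay under its cutoff of 0.402 CPM in every non-responder and passed through the responders.

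**Figure D1:**
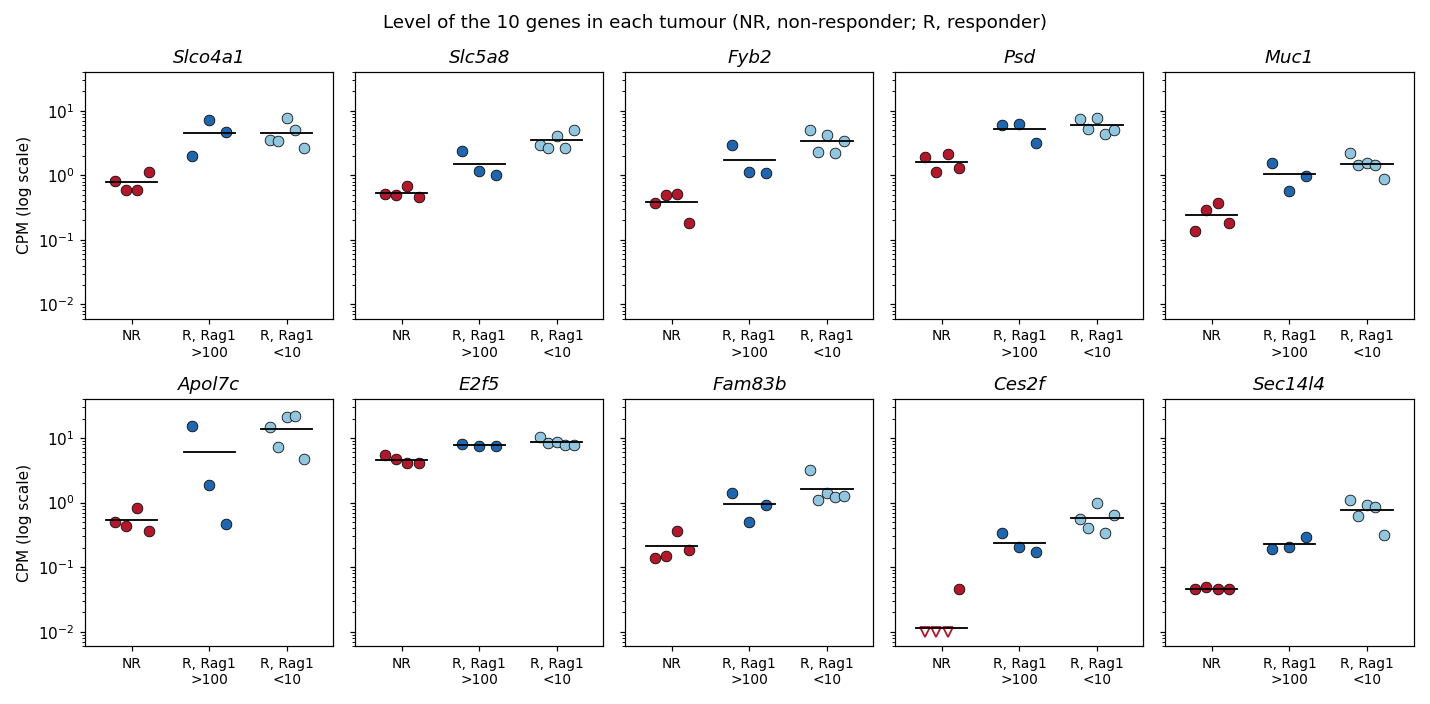
Level of each of the 10 genes in CPM (logarithmic axis) in the 4 non-responders, the 3 responders with Rag1 above 100 CPM and the 5 responders with Rag1 below 10 CPM; points are tumours, lines are means, and open triangles mark a count of 0. Apart from Apol7c, whose responder 3 lies at 0.464 CPM among the non-responders, every gene has its 4 non-responders at the bottom.

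Slco4a1 (ENSMUSG00000038963; GENCODE M21 on GRCm38, chromosome 2, 180456245 to 180474867, plus strand) had similar levels in responders with high and with low Rag1. It was at 0.826, 0.588, 0.598 and 1.13 CPM in non-responders 1 to 4, and at 1.96, 4.10 and 7.62 CPM as the lowest, the median and the highest of the 8 responders. Responders 2 and 3, with high Rag1, had 7.11 and 4.68 CPM, within the range of the Rag1-low responders, 2.62 to 7.62 CPM. Its log2 fold change was -2.51 (SE 0.45) over all tumours and -2.54 (SE 0.52) over the 7 tumours with Rag1 above 100 CPM. The lowest responder was responder 1, itself a Rag1-high tumour.

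Slc5a8 (ENSMUSG00000020062; chromosome 10, 88885992 to 88929515, plus strand) was graded over the 3 kinds of tumour. It was at 0.505, 0.49, 0.69 and 0.454 CPM in non-responders 1 to 4. The Rag1-high responders 1 to 3 had 2.41, 1.15 and 1.01 CPM, and the 5 Rag1-low responders had 2.64 to 5.12 CPM. No range overlapped its neighbour. On the log2 scale the fold change was -2.35 (SE 0.48) over all tumours and -1.53 (SE 0.45) over the 7 Rag1-high ones. Sec14l4 was the other gene of the 10 for which each Rag1-high responder lay below each Rag1-low one. The share of all genes with this order was not computed, so it cannot be called particular to these genes.

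Fyb2 (ENSMUSG00000078612; chromosome 4, 104913456 to 105016863, plus strand) was at 0.367, 0.49, 0.506 and 0.182 CPM in non-responders, which is 4 to 11 counts per library. Responders had 1.10, 2.63 and 5.04 CPM as the lowest, median and highest values. The lowest were responders 2 and 3, at 1.11 and 1.10 CPM, while responder 1, also Rag1-high, lay among the Rag1-low tumours at 2.98 CPM. The log2 fold change was -2.84 (SE 0.53), and -2.17 (SE 0.55) among the Rag1-high tumours. A pseudogene on the opposite strand, Gm12721, lies inside Fyb2 without touching its exons.

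Psd (ENSMUSG00000037126; chromosome 19, 46312087 to 46327156, minus strand) was at 1.93, 1.13, 2.12 and 1.32 CPM in non-responders and between 3.16 (responder 3) and 7.69 CPM (responder 6) in responders, with a median of 5.67. Responders 1 and 2, at 6.11 and 6.21 CPM, lay among the Rag1-low ones. The difference was -1.80 on the log2 scale (SE 0.33), and -1.68 (SE 0.42) among Rag1-high tumours. The last 299 bases of Psd are also exon of Nfkb2 on the opposite strand, and 2.76% of the stretches of 75 bases in Psd transcripts occur in Nfkb2. Nfkb2 had a similar order of tumours, with 17.9 to 22.2 CPM in non-responders and 23.7 (responder 3) to 72.9 CPM (responder 4) in responders. Whether counting used the strand is not given in the labels, so the gene to which reads of those bases were counted cannot be told.

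Muc1 (ENSMUSG00000042784; chromosome 3, 89229057 to 89233381, plus strand) was at 0.138, 0.294, 0.368 and 0.182 CPM in non-responders, from 3 to 8 counts, and at 0.576, 1.44 and 2.18 CPM as the lowest, median and highest in responders. The log2 fold change was -2.41 (SE 0.45), and -2.07 (SE 0.53) among Rag1-high tumours. Fam83b (ENSMUSG00000032358; chromosome 9, 76490054 to 76567116, minus strand) was at 0.138, 0.147, 0.368 and 0.182 CPM in non-responders. Its responders had 0.493, 1.25 and 3.22 CPM as lowest, median and highest, with responder 4 far above the next at 1.39 CPM. Its log2 fold change was -2.70 (SE 0.53), and -2.16 (SE 0.55) among Rag1-high tumours. Both genes were lowest among responders in responder 2 and highest in responder 4.

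The promoters of Muc1, Fam83b and Fyb2 are shown as examples with the 6 letters CAGGTG, a form of the E-box, at 2 places in the 250 bases before the start. Sequences are those of RefSeq on GRCm38.p6, 5′ to 3′ on the strand of the gene, with CAGGTG or its reverse complement in capitals. Muc1 lies at chr3:89228806-89229055 (plus strand), Fam83b at chr9:76567116-76567365 (minus strand) and Fyb2 at chr4:104913311-104913560 (plus strand), where the RefSeq start lies inside the GENCODE gene.
Muc1: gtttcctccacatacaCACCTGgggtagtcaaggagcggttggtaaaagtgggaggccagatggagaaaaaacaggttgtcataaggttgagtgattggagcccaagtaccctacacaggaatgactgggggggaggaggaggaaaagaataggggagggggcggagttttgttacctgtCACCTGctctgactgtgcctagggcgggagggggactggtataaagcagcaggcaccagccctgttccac
Fam83b: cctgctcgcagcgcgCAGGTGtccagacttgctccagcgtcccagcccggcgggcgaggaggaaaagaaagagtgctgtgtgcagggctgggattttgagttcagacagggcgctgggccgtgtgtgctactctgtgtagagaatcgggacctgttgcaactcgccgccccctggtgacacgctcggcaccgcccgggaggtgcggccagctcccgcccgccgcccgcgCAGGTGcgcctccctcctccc
Fyb2: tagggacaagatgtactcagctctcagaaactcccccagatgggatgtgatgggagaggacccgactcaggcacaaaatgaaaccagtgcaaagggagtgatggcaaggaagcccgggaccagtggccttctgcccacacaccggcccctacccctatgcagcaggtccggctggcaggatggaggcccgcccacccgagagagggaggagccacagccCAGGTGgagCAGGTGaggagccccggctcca
The 6 letters, searched on both strands, were found for 5 of the 8 genes with a promoter in the table, the others being Slc5a8 and Slco4a1, and in 17.2% of all 32851 promoter windows. Psd and Slco4a1 had a pair of windows each and were counted if either matched. In 1 Slco4a1 window, not shown, CAGGTG also occurred at 2 places. The 10-letter p53 half-site was found for 1 of the 8, Fam83b, and in 7.13% of all windows. A kappa-B form, GGG and CC with any 5 bases between, was found for 7 of the 8 and in 45.8% of all windows, TATAAA for 1 (Muc1) and in 12.4%, and TGTGGT, a RUNX form, for 0 and in 14.0%. Rag1's own window, for comparison, held TGTGGT at 2 places and CAGGTG at 1.

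Apol7c (ENSMUSG00000044309; chromosome 15, 77524852 to 77533316, minus strand) varied most among responders, where the highest value was 46.9 times the lowest. It was at 0.505, 0.441, 0.828 and 0.363 CPM in non-responders 1 to 4. The Rag1-high responders 1, 2 and 3 had 15.6, 1.85 and 0.464 CPM, and the 5 Rag1-low responders had 4.68 to 21.8 CPM. Responder 3 thus lay inside the range of non-responders, and responder 1 lay with the Rag1-low tumours. Its log2 fold change was -4.35 (SE 0.96), and -3.51 (SE 1.05) among Rag1-high tumours.

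Markers of several other cell types followed the order of Apol7c over responders 1 to 3. The summed level of the 10 dendritic-cell markers was 124 to 316 CPM in non-responders, against 2396, 330.4 and 162 CPM in responders 1, 2 and 3 and 759 to 1625 CPM in Rag1-low responders. Most of that sum in responder 1 was H2-Aa (983 CPM) and Cd74 (1246 CPM). Clec9a, a receptor of cross-presenting dendritic cells, was at 0.363 to 1.38 CPM in non-responders and at 17.3, 1.07 and 0.675 CPM in responders 1 to 3. Unlike the rest of the list, Flt3 (13.4, 6.25 and 8.99 CPM) and Fscn1 (25.2, 6.99 and 17.8 CPM) did not keep this order. Macrophage markers summed to 1717, 482 and 442 CPM in responders 1 to 3. Non-responders had 504 to 1432 CPM of these, so unlike Apol7c they were not low in each non-responder. Neutrophil markers summed to 236, 26.7 and 23.5 CPM in responders 1 to 3, beside 3.35 to 20.9 CPM in non-responders. B-cell markers, at 146, 17.2 and 18.3 CPM, were likewise high in responder 1 alone of these 3, beside 7.98 to 38.4 CPM in non-responders. Thymic epithelial markers summed to 236, 139 and 52.0 CPM in responders 1 to 3, beside 19.7 to 208 CPM in non-responders. The part of these cell types in the Apol7c difference was not tested. Of the 75-base stretches of Apol7c transcripts, 14.2% also occur in Apol7a, Apol7b, Apol7e or a pair of predicted genes, so part of its reads may be shared. Apol7e was at 9.08, 2.35, 1.01 and 0.681 CPM in non-responders, and at 11.3, 8.06 and 0.801 CPM in responders 1 to 3.

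The promoter of Apol7c is shown for a direct repeat of AGGTCA, the half-site of nuclear receptors, spaced by 1 base and given in capitals (chr15:77533316-77533565, minus strand).
Apol7c: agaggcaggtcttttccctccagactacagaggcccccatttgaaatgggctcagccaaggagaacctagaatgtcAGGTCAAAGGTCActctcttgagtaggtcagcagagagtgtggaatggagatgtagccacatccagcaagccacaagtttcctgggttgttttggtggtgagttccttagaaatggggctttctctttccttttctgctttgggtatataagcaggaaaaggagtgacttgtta
This spaced repeat, on either strand and with any base between, was found in 11 of the 32851 windows (0.0335%), and for 1 of the 8 genes. A single AGGTCA, which the repeat contains, was found for 3 of the 8, Apol7c, Psd and Slco4a1, and in 14.0% of all windows. A match of letters describes the sequence and no binding was measured.

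E2f5 (ENSMUSG00000027552; chromosome 3, 14578641 to 14606309, plus strand) had the smallest difference of the 10 and the least spread among responders. It was at 5.46, 4.81, 4.05 and 4.13 CPM in non-responders and between 7.42 and 10.2 CPM in responders, with a median of 7.90. The Rag1-high responders stood at 7.42 to 7.95 CPM, close to the others. The log2 fold change was -0.84 (SE 0.21), and -0.75 (SE 0.29) among Rag1-high tumours. Its last 26 bases overlap 1810022K09Rik on the opposite strand, whose groups overlapped, at 28.5 ± 8.51 CPM in non-responders (SD, n = 4) and 35.0 ± 7.97 CPM in responders (SD, n = 8).

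Ces2f and Sec14l4 were close to the limit of detection. Ces2f (ENSMUSG00000062826; chromosome 8, 104947356 to 104960047, plus strand) had 0 counts in non-responders 1 to 3 and 1 in non-responder 4, against 4 to 29 counts in responders. A count of 0 allows a level of up to 0.138 CPM in non-responders 1 and 3 and 0.147 CPM in non-responder 2, taking 3 counts per library as the limit. The lowest responder was responder 3 at 0.169 CPM. Over all libraries the non-responder rate was 0.0248 of the responder rate, with an exact 95% counting interval of 0.000622 to 0.142. Sec14l4 (ENSMUSG00000019368; chromosome 11, 4031462 to 4048024, plus strand) had 1 count in each non-responder and 5 to 34 in responders, a rate ratio of 0.0793 (95% interval 0.0213 to 0.208). These intervals describe counting error only and test nothing, since the same counts chose the genes, and the reads carry no molecular identifiers named in the labels. Responders 1 to 3 had 5, 5 and 7 Sec14l4 counts, the 3 lowest of the 8. Their fitted log2 fold changes, -4.79 (SE 0.85) for Ces2f and -3.47 (SE 0.68) for Sec14l4, depend on the prior count and bound nothing. Both genes were too low to be fitted in the 7 Rag1-high tumours. Of the 75-base stretches of Ces2f transcripts, 0.264% also occur in Ces2g or a predicted gene.

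**Figure D2:**
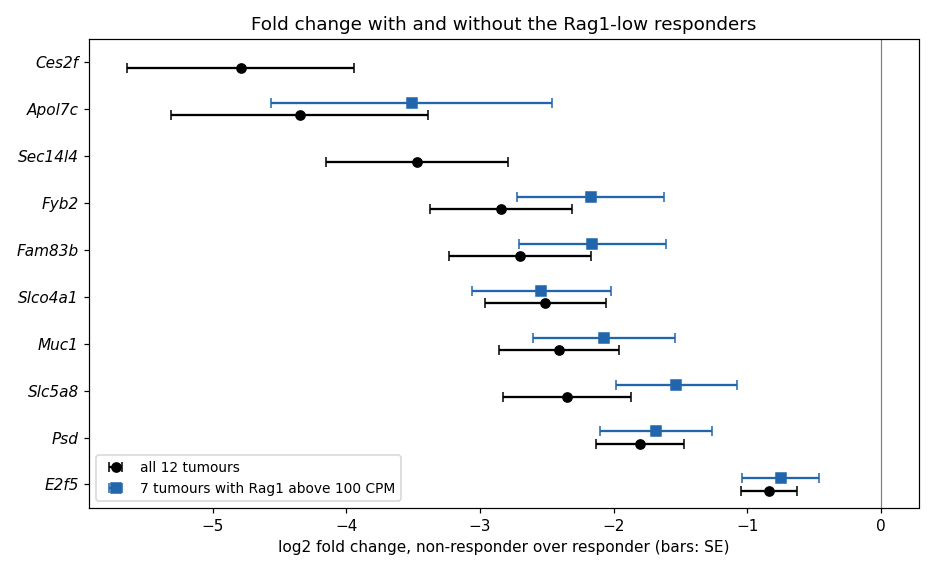
Log2 fold change of each gene, non-responder over responder, over all 12 tumours (circles) and over the 7 tumours with Rag1 above 100 CPM (squares); bars are standard errors. Without the 5 Rag1-low responders Slco4a1 stays at -2.54, while Slc5a8 is at -1.53 against -2.35 over all tumours.

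Per kilobase of exon, the levels of the 10 genes fell into a high pair and a low group. In responders Apol7c averaged 5.34 ± 4.14 and E2f5 4.62 ± 0.501 CPM per kilobase (SD, n = 8), which do not differ beyond their spread. Slco4a1, Fyb2, Psd, Muc1, Slc5a8 and Fam83b followed with means of 0.938, 0.893, 0.744, 0.563, 0.518 and 0.356, each within 1 SD of its neighbour, and Sec14l4 (0.161 ± 0.104) and Ces2f (0.0922 ± 0.0542) came last. In non-responders E2f5 stood alone at 2.59 ± 0.37 CPM per kilobase (SD, n = 4), and the next, Apol7c, had 0.259 ± 0.099. Among responders, responder 4 had the highest level of 5 of the 10 genes and responder 6 of 3, while responder 3 had the lowest level of 6. Responders 1 and 2 had the lowest of 2 each, so each lowest value came from a Rag1-high tumour. How often these tumours stand at the ends over all genes was not computed, so the tally cannot be called particular to the 10.

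Of the 10 genes, 8 could be fitted within the 7 Rag1-high tumours, where their median log2 fold change was -2.12. No gene of the 17470 tested there passed an adjusted p under 0.05 in edgeR (0.0%), while 621 (3.55%) were lower and 337 (1.93%) higher at an unadjusted p under 0.05. Over all 12 tumours edgeR likewise called 0 of 18612 genes (0.0%, lowest adjusted p = 0.0786). At an unadjusted p under 0.05 it gave 2990 genes as lower (16.1%) and 1438 as higher (7.73%) in non-responders. At an adjusted p under 0.05, DESeq2 called 2462 genes (13.2%) and limma-voom 1723 (9.26%).

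The relatives of the 10 genes, 126 paralogues or partners in 10 lists, were examined for whether the low level was shared within families. Of these, 92 passed the filter, none had an adjusted p under 0.05, and 24 (26.1%) were lower and 5 (5.43%) higher in non-responders at an unadjusted edgeR p under 0.05, beside 16.1% and 7.73% over all genes. Their median log2 fold change was -0.24. Among the 7 Rag1-high tumours 4 of 81 relatives were lower and 2 higher at that level, beside 3.55% and 1.93% of all genes, and the median was -0.10. A single relative of the 92, Ces2g, had non-responders below responders without overlap over all tumours, beside 1.18% of all genes. Against the Rag1-high responders alone it was 3 of the 92, beside 3.07% of all genes.

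The lists of Apol7c, Ces2f, Slco4a1 and Muc1 had the lowest medians over all tumours, and each median was nearer to 0 among the Rag1-high tumours. Fewer genes of each list could be fitted there, so these medians cover unlike sets. Slco4c1 (-3.92 over all tumours) and Muc4 (-2.21) were among those not fitted. All 8 tested apolipoprotein L genes had a log2 fold change below 0, as had 51.5% of all genes tested, with a median of -2.43, 6 of them at an unadjusted p under 0.05. Apol6, an intracellular family member, was at 1.28 ± 0.507 CPM in non-responders (SD, n = 4) and 6.50 ± 7.66 CPM in responders (SD, n = 8), which is -2.35 on the log2 scale (SE 0.86, adjusted p = 0.138 in edgeR). Apol9b (-2.14) and Apol11b (-2.77) were similar. Among the Rag1-high tumours 0 of 7 apolipoprotein L genes were lower at that level (median -1.05). Of 18 carboxylesterases 7 were tested, all 7 below 0 (median -2.29) and 5 at an unadjusted p under 0.05. Ces2g was at 1.05 ± 0.445 CPM in non-responders and 4.99 ± 3.91 CPM in responders (-2.25, SE 0.67, edgeR adjusted p = 0.117), and Ces1d, a lipid hydrolase of fat and liver, at 2.52 ± 1.83 CPM in non-responders and 27.2 ± 30.2 CPM in responders (-3.44). Among the Rag1-high tumours 2 of 4 carboxylesterases were lower at that level (median -1.20).

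Of the SLCO transporters 7 of 14 were tested, 6 below 0 (median -1.50) and 4 at an unadjusted p under 0.05. Slco2a1, the prostaglandin transporter, was at 3.04 ± 0.758 CPM in non-responders and 8.59 ± 4.28 CPM in responders (-1.50, SE 0.43, edgeR adjusted p = 0.117). Slco5a1 (-3.07) and Slco4c1 (-3.92) had the same sign. Responders 2 and 3, where Slco4a1 was high, were among the non-responders for Slco5a1, which was at 0.687 to 3.13 CPM in non-responders and at 2.06 and 0.759 CPM in those responders. Among the Rag1-high tumours 0 of 5 SLCO genes were lower at an unadjusted p under 0.05 (median -0.20). All 7 mucin genes tested lay below 0 (median -1.44), 3 at an unadjusted p under 0.05. They were Muc4 (-2.21), Muc13 (-2.15) and Emcn (-1.69), the last of which also marks endothelium. Among the Rag1-high tumours 1 of 5 mucin genes was lower at that level (median -0.68).

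The lists of E2f5 and Fam83b had medians above 0, the opposite sign to the genes themselves. Of 16 E2F factors, partners and pocket proteins, 14 had a log2 fold change above 0 (median 0.27), 3 of them at an unadjusted p under 0.05 and none lower at that level. E2f6, a repressor, was at 30.3 ± 8.16 CPM in non-responders and 19.5 ± 3.47 CPM in responders (0.63, SE 0.20, edgeR adjusted p = 0.118), E2f7 at 13.8 to 25.6 CPM in non-responders and 5.61 to 22.5 CPM in responders (0.76), and E2f4 at 89.0 ± 17.2 CPM in non-responders and 55.2 ± 28.5 CPM in responders (0.69). Of 7 FAM83 genes 4 had a log2 fold change above 0 and 3 below 0 (median 0.25), 1 of them higher at an unadjusted p under 0.05, namely Fam83d. Fam83d, a mitotic spindle gene, had 22.6 ± 7.09 CPM in non-responders and 12.3 ± 4.50 CPM in responders (0.88, edgeR adjusted p = 0.120). Fam83h (-1.05) and Fam83c (0.69) had an unadjusted p of 0.101 and 0.0704 in edgeR.

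The other 4 lists had medians between -0.27 and -0.03. Of the 14 ARF exchange factors 10 had a log2 fold change below 0 (median -0.27), with 4 lower (28.6%, beside 16.1% of all genes) and 1 higher at an unadjusted p under 0.05. Psd3, a paralogue of Psd, was at 6.12 ± 0.586 CPM in non-responders and 16.1 ± 9.61 CPM in responders (-1.40, SE 0.43, edgeR adjusted p = 0.118), Iqsec1 at -0.70 and Cyth4 at -0.76. The 11 genes of the FYB1 module had a median of -0.22, with 1 lower at an unadjusted p under 0.05, Lcp2 (-0.80), which encodes the adaptor SLP-76. Evl (-0.75) and Skap2 (-0.61) had unadjusted edgeR p of 0.0981 and 0.118. The SEC14 list had a median of -0.23 with 1 of 7 lower, the vitamin E carrier gene Ttpa (-2.93), beside Sec14l5 (-1.85) and Ttpal (-0.23). Of 8 SLC5 genes none had an unadjusted p under 0.05 in either direction (median -0.03), and Slc5a10, Slc5a9 and Slc5a3 were at -0.84, 1.52 and -0.32.

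**Figure D3:**
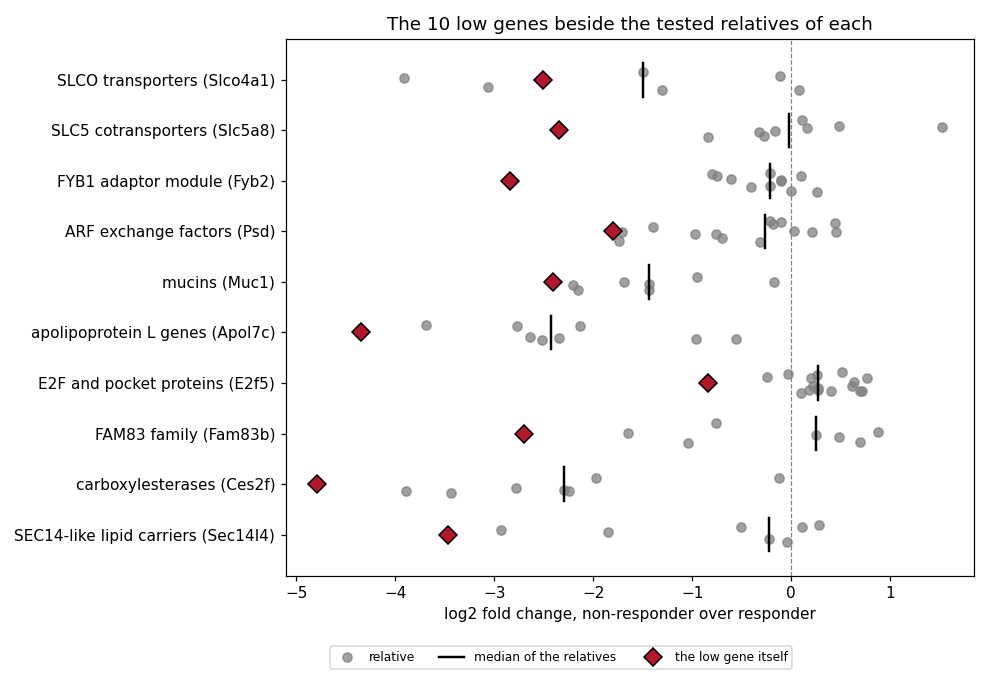
Log2 fold change, non-responder over responder, of each of the 10 genes (diamonds) and of the tested relatives in its list (circles), with the median of the relatives as a bar. The medians run from -2.43 for apolipoprotein L genes to 0.27 for the E2F list, and each diamond but that of Slco4a1 lies below every relative in its list.

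Markers of other cells in the tumour pieces were also lower in non-responders, for most lists. The fibroblast sum was not, with a median of 856 CPM in non-responders and 867 CPM in responders, but its 6 genes were divided. Of these, 3 had a log2 fold change below 0, 2 of them at an unadjusted p under 0.05 in edgeR. The other 3 were above 0, none at that level. Macrophage sums overlapped widely, at 504 to 1432 CPM in non-responders and 442 to 1717 CPM in responders. So did lung epithelial sums, at 55.8 to 95.5 CPM in non-responders and 52.7 to 128 CPM in responders. Most of that sum was Abca3, at 52.4 to 92.3 CPM in non-responders and 40.9 to 112 CPM in responders. All 6 tested genes of the lung list had a log2 fold change below 0, 2 of them at an unadjusted p under 0.05 in edgeR. The 14 thymic epithelial markers summed to 19.7 to 208 CPM in non-responders, against 52.0 to 236 CPM in Rag1-high and 238 to 374 CPM in Rag1-low responders. All 14 had a log2 fold change below 0, as had 51.5% of all genes tested. Foxn1, their defining factor, was at 0 to 0.828 CPM in non-responders and 0 to 2.28 CPM in responders. The 8 liver and gut markers summed to 2.35 to 8.90 CPM in non-responders and 8.23 to 25.1 CPM in responders. Neutrophil markers had a median sum of 12.2 CPM in non-responders and 164 CPM in responders. Muscle markers summed to 5.92 to 20.2 CPM in non-responders and 14.6 to 509 CPM in responders, and adipocyte markers to 29.2 to 52.6 CPM in non-responders and 43.0 to 1116 CPM in responders. With the thymic epithelial score as a covariate the median log2 fold change of the 10 genes was -1.96, against -2.60 without it. The part of the other cell types was not tested.

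Several responders lay inside the non-responder range for some of these lists. Of 12 lists of other cell types, responder 3 lay inside the non-responder range for 6, thymic epithelium and dendritic cells among them. It also had the lowest level of 6 of the 10 genes among responders. Responder 2 lay inside for 5 lists, thymic epithelium among them, and responder 8 for 5, among them muscle (14.6 CPM), adipocyte (43.0 CPM) and erythroid (122 CPM) markers. Responder 2 had the lowest Muc1 and Fam83b of all responders. That the 10 genes mostly stood above each non-responder in these tumours follows from how they were chosen. It therefore says nothing about the part of other cell types, which was not tested. Responder 8 had the highest Slc5a8 level of all tumours, 5.12 CPM. No responder lay inside the non-responder range for all 12 lists, though a sum outside it could also lie below it. Macrophage sums in responders 2 and 3 (482 and 442 CPM) lay below the lowest non-responder, 504 CPM. The fibroblast sum of responder 8 (265 CPM) lay below 393 CPM, the lowest non-responder.

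**Figure D4:**
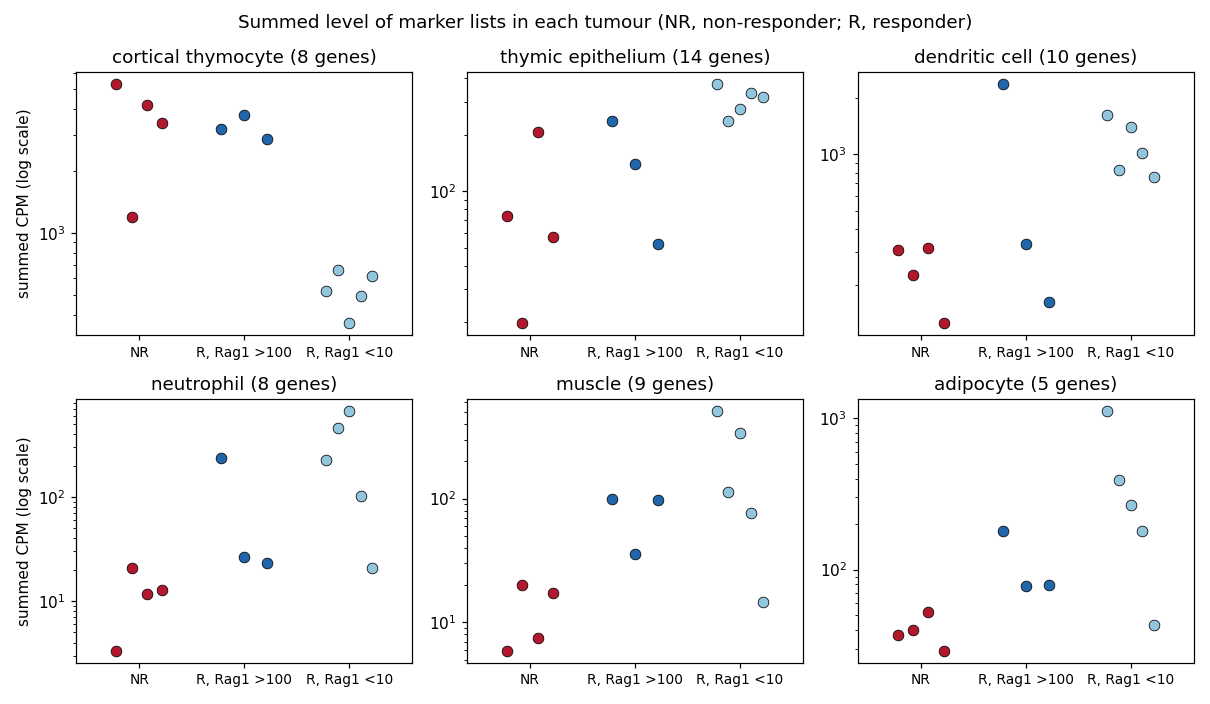
Summed CPM (logarithmic axis) of 6 marker lists in the 4 non-responders, the 3 responders with Rag1 above 100 CPM and the 5 responders with Rag1 below 10 CPM; points are tumours. Cortical thymocyte markers set the Rag1-low responders apart (363 to 658 CPM), in part by construction, since the list includes Rag1. Not each gene of that list did so: Cd4 was at 46.5 to 93.1 CPM in Rag1-low responders and 42.8 to 222 CPM in non-responders. For thymic epithelium the non-responders (19.7 to 208 CPM) overlap the Rag1-high responders (52.0 to 236 CPM).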

How the data were processed

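The authors deposited 1 table of raw read counts, whole numbers by Ensembl gene, for the 12 tumours. TruSeq mRNA libraries were sequenced as 75-base paired reads, 4 to a lane, per the labels' protocols. The submitters' processing notes name HTSeq, DESeq and NCBIM37, whereas the labels' extract protocol names mm10, so the build is unsettled. The sources used here give neither the aligner nor the use of strand. Symbols came from GENCODE M21 (32919 of 37991 identifiers matched), and of the 126 listed relatives 124 matched. Coordinates and sequences on GRCm38 were added here and take no part in the counts used.

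Genes were filtered with filterByExpr (10 counts, 18612 kept), scaled by TMM and tested with the edgeR 4.0.16 quasi-likelihood test in R 4.3.3 (two-sided, Benjamini-Hochberg, threshold 0.05), with the labelled response as sole term. The procedure was tested on simulated data. Alternatives used RLE scaling, other filters, DESeq2 1.42.0, limma-voom (limma 3.58.1), 1 surrogate variable (sva 3.50.0), Rag1 or a thymic epithelial score as covariate, the Rag1-high tumours alone, and each tumour left out. No library was a repeat of another (lowest chi-square per degree of freedom 58.8 over 66 pairs).

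The 10 genes, the lists and the tests were chosen with earlier results of these data known, and the motifs after the sequences were seen. Named genes are the 10, Rag1, genes overlapping or near-identical to one of them, the 3 tested relatives per list with the lowest p, and markers that move with them.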

Additional observations from a re-analysis of the deposited data

Results flagged for a closer look

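In 82 sets of values (each of the 10 genes, Rag1 and the named relatives, in either group), 12 had 1 tumour far from the others by Dixon's gap criterion. Its chance rate of about 1 in 20 is for independent, normally spread values. These sets share the same tumours, so their number cannot show an excess over chance. Responder 4 was the high one in 7 of the 12 flagged sets. It had 10.2 CPM of E2f5 where the next responder had 8.61, and 3.22 CPM of Fam83b where the next had 1.39. It also had 18.7 CPM of Emcn, 24.4 CPM of Apol6, 96.8 CPM of Ces1d, 12.3 CPM of Ces1f and 2.96 CPM of Ttpa. The same tumour had the highest summed muscle (509 CPM), adipocyte (1116 CPM) and endothelial (548 CPM) markers, whose part was not tested.

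Non-responder 4 stood out for Ces2f at 0.0454 CPM, which is 1 count beside 0 in the others, and for Fam83d at 33.1 CPM. Non-responder 2 stood out for Sec14l4 at 0.049 CPM, although each non-responder held 1 count and the values differ through library size alone. Non-responder 3 had 0.874 CPM of Apol9b beside 0.275 CPM in the next. Responder 3 had 119.9 CPM of E2f4 beside 69.5 CPM in the next.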

How the results depend on the processing

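The 10 fold changes kept their sign in all 198 refitted values, of which 176 moved by less than 1 SD between tumours and 22 by more. The genes were chosen as lower in these same tumours, so the kept sign is no independent support. The median of the fold changes, -2.60, was -1.47 with 1 surrogate variable and -1.96 with the thymic epithelial score as a covariate. It lay between -2.59 and -2.12 in the other alternatives and between -2.81 and -2.36 with 1 tumour left out. Where Ces2f or Sec14l4 could not be fitted, the median is over fewer genes and is not like for like. The -2.12 of the Rag1-high tumours and the -2.36 without responder 4 or 6 are over 8 genes. With the surrogate variable Apol7c was at -1.38 and Slc5a8 at -1.15, whereas Slco4a1 lay between -2.71 and -2.33 in the alternatives that left out no tumour or kept the Rag1-high ones. Ces2f and Sec14l4 could not be fitted under the filter of 1 CPM in 4 tumours, nor, as a separate setting, in the Rag1-high tumours alone. Ces2f could not be fitted without responder 4, 5, 6 or 8, and Sec14l4 could not without responder 4, 5, 6 or 7. Ces2f reached -6.53 without non-responder 4, which held its single count there. The count of 9 genes without overlap was 9 under RLE scaling and 10 without responder 3; leaving tumours out cannot lower it, so the other runs say nothing of its stability. The 24 relatives lower at an unadjusted p under 0.05 became 4 with 1 surrogate variable, 4 with Rag1 as a covariate, 3 with the epithelial score and 4 in the Rag1-high tumours alone, and 17 to 32 with 1 tumour left out. Over all genes the share lower at that level in edgeR was 16.1% in the main fit and 3.55% in the Rag1-high tumours. It was not computed for the covariate settings, so the fall cannot be called particular to the relatives. The cause was not tested. Genes called over all genes numbered 0 in edgeR, 2462 in DESeq2 and 1723 in limma-voom, and 0 to 5 with 1 tumour left out (5 without responder 3, 3 without non-responder 1 and 1 without non-responder 3), none of the 10 genes among these. The DESeq2 and limma-voom calls held all 10, which were chosen on this contrast. No paired analysis was possible because the labels carry no replicate numbers. Depth limits Ces2f, Sec14l4, Muc1 and Fam83b, which had at most 8 counts in any non-responder.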
